A study of Mus musculus with 123 samples.

Results

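The change in gene expression between 2 h and 6 h after challenge was followed in the lungs of sensitized mice. The comparison took 2 of the 16 groups of the series, which hold 6 to 8 mice each, chosen by their labels: 8 sensitized mice at 2 h and 8 others at 6 h, with 1 array of whole lung RNA per mouse. All 13053 genes that could be named from the arrays were compared, each by its brightest probe set, as averaged over the whole series. The mice were of the BALB/c strain. The sensitized arm had been sensitized to ovalbumin (OVA), an egg protein, and was then challenged with it, a common model of allergic asthma. The naive arm had not been sensitized, and its 7 mice at 2 h and 8 mice at 6 h gave the background of time of day and handling. Per the design text both arms were challenged with OVA and 8 animals were taken per time, whereas naive titles have PBS in them, so what the naive mice received is not settled by the labels. Neither ages nor the hour of the day are given, and mice at 2 h and 6 h were different animals.

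In a sensitized lung, allergen acts on memory T helper cells, mast cells and basophils, which release the cytokines IL-4, IL-5 and IL-13. These act on airway epithelium, which turns towards mucus secretion, and on macrophages and dendritic cells, which release chemokines that draw further leukocytes. Interferon gamma from activated T cells and natural killer (NK) cells induces a separate set of genes, among them the chemokines that bind CXCR3. The lung also has a circadian clock, and glucocorticoid hormone from the adrenal gland follows the time of day and stress, so a lung sampled some hours later differs even without allergen.

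Values are log2 signals, so that a step of 1 doubles the signal, and differences are given as 6 h minus 2 h with their standard error (SE). The label of lung was checked on markers of alveolar type II cells, such as the surfactant proteins, whose mean lay between 13.12 and 13.43 in the sensitized mice. The medians of the 31 arrays of the 4 groups lay between 9.36 and 9.44. The log2 difference between 3′ and 5′ probe sets of actin, a measure of RNA integrity, fell by 0.22 from 2 h to 6 h in sensitized mice (adjusted p = 0.00218, exact permutation test) and by 0.12 in naive mice (adjusted p = 0.0073, exact permutation test). Its part in the changes below was not tested. Of the 31 arrays, 6 were high in transcripts of tissue next to the lung: naive replicate 2 at 2 h, naive replicates 1, 4 and 8 at 6 h, and sensitized replicates 3 (skeletal muscle) and 7 (squamous epithelium) at 6 h. The sensitized mice of each group also differed widely. At 6 h replicate 3 stood near the naive level in many genes that were high in the other 7, and at 2 h the mice ranged from the naive level to near the 6 h level in many of the same genes. The mean over the type 2 cytokines and their receptors lay between 8.04 and 9.95 (median 8.69) at 2 h and between 8.01 and 10.52 (median 10.12) at 6 h, against 7.94 to 8.20 in all naive mice. It was above every naive mouse in 5 of 8 sensitized mice at 2 h and in 7 of 8 at 6 h.

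From 2 h to 6 h, 2732 of the 13053 genes rose in sensitized lungs and 3496 fell (limma, adjusted p under 0.05). These are 20.9% and 26.8% of the genes tested, 47.7% in all, and the median change over all genes was -0.03. Most changes were small: 211 of the genes that rose did so by at least 1, and 70 fell by at least that much. In naive lungs 75 genes (0.575%) rose and 109 (0.835%) fell between the same times, 1.41% in all. The 4 groups shared 1 estimate of spread per gene, though sensitized mice varied more than naive mice in many genes. Both shares depend on that choice. The naive count was 355 with the spread of all arrays of the series and 1008 with array weights. The sensitized count was 5101 in the fit of the sensitized arrays alone, and no fit of the naive arrays alone was made. The change differed between the arms, by a test of that difference, in 3090 genes (23.7%), with 1531 (11.7%) more positive and 1559 (11.9%) more negative in sensitized mice. Without sensitized replicate 3 at 6 h this count was 4873. The values of every 6 h mouse lay above those of every 2 h mouse in 128 genes (0.981%) and below them in 154 (1.18%). RNA of a whole lung does not show whether a gene changed in its cells or the share of those cells changed, and these cannot be told apart here.

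Several of the highest changes lay in genes induced by interferon gamma. Cxcl11, a chemokine that draws activated T cells through CXCR3, lay between 5.50 and 9.90 (median 7.03) at 2 h and between 5.60 and 13.16 (median 12.53) at 6 h. It rose by 3.92 ± 0.83 (adjusted p = 0.000475), and its other probe set differed by 2.48. The lowest mouse at 6 h was within the range of the 2 h mice, and 6 of 8 mice at 6 h lay above every mouse at 2 h. Naive mice stayed between 5.16 and 6.56 at both times, and the change differed between the arms by 3.95 (adjusted p = 0.0197). Cxcl9, another ligand of CXCR3, rose by 3.32 ± 0.78, from a range of 5.61 to 10.38 (median 8.10) to one of 6.03 to 13.04 (median 12.57). Cxcl10, the remaining ligand of this receptor, rose by 2.47 ± 0.71 (adjusted p = 0.00587). Its call was lost in the exact permutation test (adjusted p = 0.0675). Ido1, which degrades tryptophan, was at most 8.17 at 2 h and had a median of 11.52 at 6 h, and it rose by 3.24 ± 0.53. The ubiquitin-like modifier Ubd rose by 3.18 ± 0.68, and Calhm6, a channel protein of activated phagocytes, by 2.56 ± 0.39. For both, 6 of 8 mice at 6 h lay above every 2 h mouse.

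**Figure D1:**
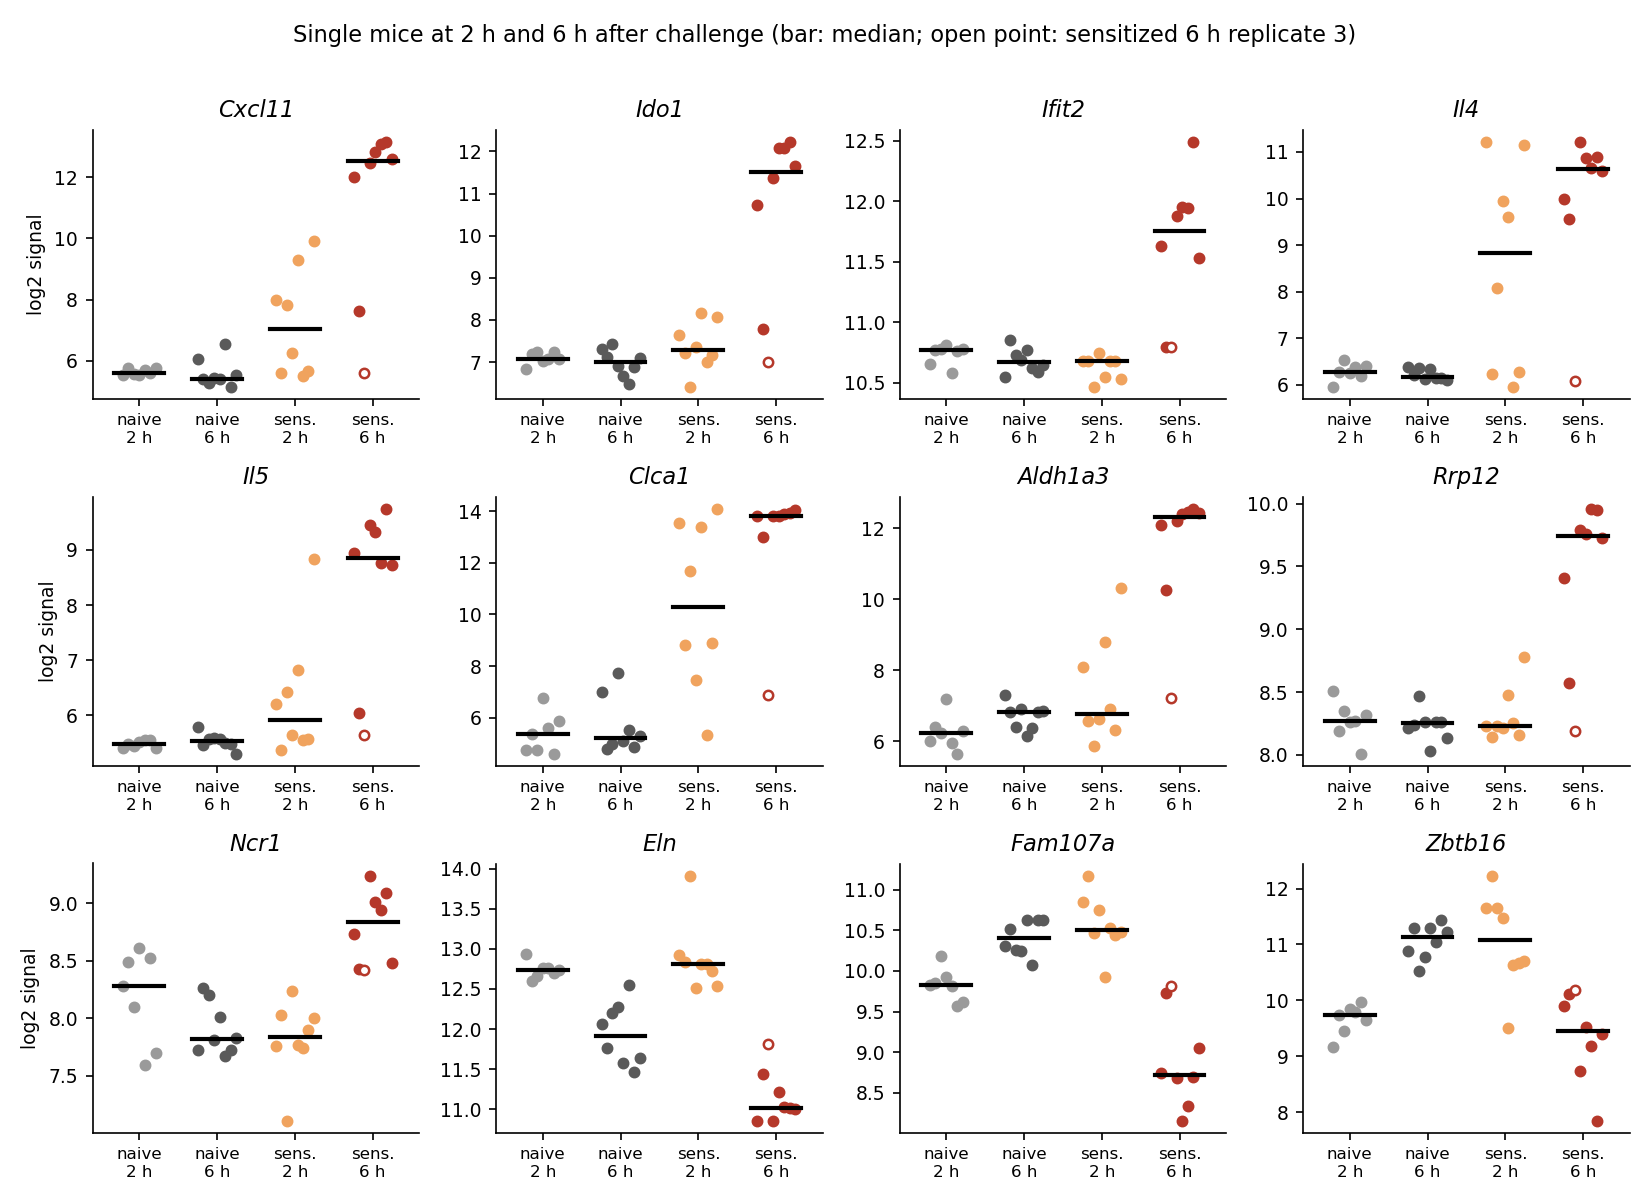
Log2 signal of 12 genes in each mouse (points) at 2 h and 6 h in naive and sensitized lungs, with the group median as a bar. Sensitized replicate 3 at 6 h is drawn as an open point. It lies near the naive mice in Cxcl11, Ido1, Il4 and Clca1, while Eln and Fam107a are lower in all 8 sensitized mice at 6 h than in any at 2 h.

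All 21 measured interferon gamma targets and antigen processing genes rose and none fell, with a median change of 1.02, against 20.9% of all genes and a median of -0.03. The change was more positive than in naive mice in 18 of the 21. The guanylate-binding and immunity-related GTPases, which attack the vacuoles of intracellular parasites, were among them: Iigp1 rose by 1.74 ± 0.36, Igtp by 1.21 ± 0.25, Gbp3 by 1.08 ± 0.22 and Gbp2 by 1.04 ± 0.21. Gbp2 lay between 10.45 and 11.44 (median 10.78) at 2 h and between 10.48 and 12.42 (median 12.23) at 6 h, so only the upper 6 mice were clear of the earlier group. Genes that prepare peptides for presentation rose too. The peptide transporter Tap1 rose by 1.19 ± 0.21, the immunoproteasome subunit Psmb9 by 0.82 ± 0.12, the class I transactivator Nlrc5 by 1.08 ± 0.21 and the class II transactivator Ciita by 0.83 ± 0.13. The transcription factors Irf1 and Irf8 rose by 0.54 ± 0.16 and 0.63 ± 0.10, though the call of Irf1 was lost in the exact permutation test (adjusted p = 0.0636). Ifng itself lay between 6.08 and 9.13 (median 6.95) at 2 h and between 6.13 and 9.94 (median 9.28) at 6 h. It rose by 1.54 ± 0.46, with 4 of 8 mice above every 2 h mouse, but its call was lost in the exact permutation test (adjusted p = 0.0715).

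Of 23 interferon-stimulated antiviral genes 21 rose and none fell, with a median change of 0.66. The nucleic acid sensor Zbp1 rose by 2.02 ± 0.35 and was clear of the earlier group in 7 of 8 mice. The GTPase Mx1 rose by 1.26 ± 0.27 and the helicase Dhx58, which tunes RNA sensing, by 0.89 ± 0.18. Ifit2, which binds foreign RNA, lay between 10.47 and 10.75 (median 10.68) at 2 h and between 10.80 and 12.49 (median 11.75) at 6 h. No 6 h mouse overlapped the 2 h mice in Ifit2, replicate 3 included, and its rise passed the test (adjusted p = 1.43e-05). The RNA sensor Ddx58, at 0.14 ± 0.07, and the nucleotide kinase Cmpk2, at 0.25 ± 0.12, were not called, though without sensitized replicate 3 at 6 h both were (adjusted p = 0.0272 and 0.0145).

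The promoters of these genes were set beside the values because interferon response factors and STAT proteins bind known short sequences. Promoters of 10459 tested genes, from 250 bases before to 50 after the start (RefSeq, GRCm38.p6, from another strain than BALB/c), were searched on both strands. The core of the interferon-stimulated response element (ISRE), GAAANNGAA, was found in 6.97% of them, in 9.37% of genes that rose and in 5.56% of genes that fell. It was present in 24 of 161 promoters of genes that rose by at least 1 (14.9%). Of the antiviral list 9 of 16 held it (56.2%), and of the interferon gamma list 8 of 15 (53.3%). The STAT site TTCNNNGAA was found in 6.93% of all promoters and in 6 of 15 of the interferon gamma list (40.0%). The ISRE core and the STAT site share GAA and can overlap. The NF-kB core GGANTTTCC was found in 1.33% of all promoters and in 4 of 13 of the CXC chemokine list (30.8%). These 4 were Cxcl1, Cxcl2, Cxcl3 and Cxcl10. With all mice in the fit Cxcl1, Cxcl2 and Cxcl3 were not called, and the call of Cxcl10 was lost in the exact permutation test. A match is a stretch of letters and not a measured binding site. The stretches below are printed 5′ to 3′ on the strand of the gene, upstream of the start. They were chosen from genes whose promoters hold a match, so they do not show how common the motifs are. Ifit2, for example, is not printed, as it held a STAT site but no ISRE core. Of the genes printed, Ifit1 rose by 0.67, and its call was lost in the exact permutation test (adjusted p = 0.0621). Capitals mark the ISRE core in either orientation, in Cxcl10 also the NF-kB core nearer to the start, in Irf1 the STAT site and in Cxcl1 the NF-kB core. Cxcl1 is shown for comparison, since it was not called.
Cxcl9 (chr5:92328200-92328279, strand -): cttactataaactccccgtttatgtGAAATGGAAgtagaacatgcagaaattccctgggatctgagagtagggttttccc
Cxcl10 (chr5:92349020-92349119, strand -): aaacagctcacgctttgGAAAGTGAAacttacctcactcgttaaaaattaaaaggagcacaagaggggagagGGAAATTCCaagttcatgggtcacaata
Calhm6 (chr10:34127993-34128072, strand -): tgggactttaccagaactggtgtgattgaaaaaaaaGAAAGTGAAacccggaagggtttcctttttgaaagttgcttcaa
Cd274 (chr19:29367328-29367407, strand +): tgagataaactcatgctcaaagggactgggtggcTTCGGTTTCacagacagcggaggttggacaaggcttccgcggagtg
Gbp3 (chr3:142559964-142560043, strand +): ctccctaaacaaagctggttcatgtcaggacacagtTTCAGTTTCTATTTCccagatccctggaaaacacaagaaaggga
Ifit1 (chr19:34640759-34640838, strand +): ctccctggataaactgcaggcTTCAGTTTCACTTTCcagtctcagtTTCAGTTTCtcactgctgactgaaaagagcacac
Irf1 (chr11:53769889-53769968, strand +): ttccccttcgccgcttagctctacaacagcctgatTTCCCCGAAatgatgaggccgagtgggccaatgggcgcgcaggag
Cxcl1 (chr5:90891135-90891214, strand +): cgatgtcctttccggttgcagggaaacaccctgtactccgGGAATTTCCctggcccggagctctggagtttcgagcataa
The stretches of Gbp3 and Ifit1 each hold overlapping copies of the core.

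Many genes of activated T cells were higher at 6 h. Of 18 such genes 13 rose and 1, the transcription factor Nfatc1, fell by 0.33 ± 0.07, with a median change of 1.04 over the list. A fit of the sensitized arrays alone called 8 of them higher. The mean of all probe sets of Nfatc1 changed by 0.00. Tnfrsf9, a costimulatory receptor also called 4-1BB, rose by 2.26 ± 0.54. The interleukin 2 receptor chain Il2ra lay between 7.20 and 9.84 (median 7.89) at 2 h and between 7.80 and 11.44 (median 10.84) at 6 h, and rose by 2.11 ± 0.43 (adjusted p = 0.000289). All naive mice lay between 7.19 and 7.66, and 6 of 8 mice at 6 h were above all sensitized mice at 2 h. The inhibitory receptor Ctla4 rose by 1.69 ± 0.37 and the costimulatory receptor Icos by 1.14 ± 0.29. Il2, the growth factor itself, stood at -0.15 ± 0.25 and the type 2 regulator Gata3 at 0.01 ± 0.13, both not called.

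Of 10 type 2 cytokines and receptors 8 rose and none fell, with a median of 0.96. Il5, which keeps eosinophils alive, lay between 5.37 and 8.84 (median 5.91) at 2 h and between 5.64 and 9.75 (median 8.85) at 6 h and rose by 2.03 ± 0.48 (adjusted p = 0.0012). In 4 of 8 mice it was above every 2 h mouse. Il13, which drives mucus production, rose by 1.53 ± 0.53, and the regulatory cytokine Il10 by 1.63 ± 0.46. The calls of Il13 and Il10 were lost in the exact permutation test (adjusted p = 0.117 and 0.0664). Il4, which instructs type 2 T helper cells, lay between 5.96 and 11.21 (median 8.83) at 2 h and between 6.07 and 11.22 (median 10.62) at 6 h. The highest mice of both times were alike in Il4, and the difference of 1.43 ± 0.68 was not called (adjusted p = 0.0846). It was called without sensitized replicate 3 at 6 h (1.98, adjusted p = 0.00556), without sensitized replicate 1 or 8 at 2 h, with the spread of all arrays of the series (adjusted p = 0.000694) and with array weights (2.70). All naive mice lay between 5.96 and 6.53. Il13ra2, a decoy receptor for IL-13, rose by 1.60 ± 0.34, and the receptor chain Il4ra by 0.50 ± 0.13. Of the 3 epithelial alarmins, 2 rose, Il1a by 0.38 ± 0.12 and Il33 by 0.72 ± 0.24, calls that were lost in the exact permutation test (adjusted p = 0.0615 and 0.109), while Tslp stood at -0.12 ± 0.11, not called.

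The measured genes of goblet cells and mucus all rose, 20 of 20, with a median change of 1.34. In 10 of them the change was more positive than in naive mice, a count that ran from 6 (without, among others, sensitized replicate 7 at 6 h) to 17 (without sensitized replicate 8 at 2 h) when 1 mouse was left out. Fxyd4, a regulator of ion transport, rose by 3.30 ± 0.70 and Agr2, which folds mucins, by 2.69 ± 0.52. Agr2 lay between 8.01 and 11.66 (median 8.94) at 2 h and between 10.39 and 12.82 (median 12.28) at 6 h. Its lowest 6 h mouse was already above all naive mice, and 6 of 8 were above every 2 h mouse. Clca1, a secreted protein of goblet cells, lay between 5.34 and 14.09 (median 10.28) at 2 h and between 6.89 and 14.06 (median 13.82) at 6 h. Every 6 h value of Clca1 lay within the range of the 2 h mice. It rose by 2.50 ± 1.04 (adjusted p = 0.0485), a call that was lost in the exact permutation test (adjusted p = 0.164) and in 25 of the 31 fits that each left out 1 mouse. The anion exchanger Slc26a4 rose by 2.29 ± 0.77, also lost in the exact permutation test (adjusted p = 0.105). The mucins Muc5ac and Muc5b rose by 1.56 ± 0.45 and 1.12 ± 0.38, and Spdef, the transcription factor of goblet cells, by 0.83 ± 0.19. Their calls held in the exact permutation test for Spdef (adjusted p = 0.0312) and were lost for Muc5ac (adjusted p = 0.0673). In sensitized mice at 0 h the mean of this list lay between 9.62 and 11.26 (median 10.12). The rise from 2 h thus brought the list near its 0 h level and not beyond it. The list mean lay between 7.47 and 10.24 (median 8.11) at 2 h and between 8.11 and 10.66 (median 10.13) at 6 h. It was above all naive mice in 5 of 8 sensitized mice at 2 h and in 8 of 8 at 6 h.

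The highest single change was that of Aldh1a3, an enzyme that makes retinoic acid. It lay between 5.87 and 10.33 (median 6.78) at 2 h and between 7.21 and 12.55 (median 12.30) at 6 h, and rose by 4.01 ± 0.61 (adjusted p = 1.62e-05), with 6 of 8 mice above all 2 h mice. Its remaining probe sets gave smaller differences, of 0.31 and 1.89. Further genes of this size were Dmp1, a phosphoprotein of mineralized matrix, which rose by 3.14 ± 0.55 (1.77 in its other probe set), AA467197 by 2.65 ± 0.60, the adhesion molecule Chl1 by 2.63 ± 0.56 and Bcat1, which transaminates branched-chain amino acids, by 2.53 ± 0.39. Dmp1 was at most 7.18 at 2 h, and its median was 9.65 at 6 h.

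Macrophage and dendritic cell genes that respond to IL-4 and IL-13 rose as well, 8 of 13 with none lower and a median change of 1.14, or 5 of 13 in the fit of the sensitized arrays alone. The chitinase-like Chil4 rose by 3.16 ± 0.94. Only 2 of 8 mice at 6 h lay above every 2 h mouse in Chil4, which ranged from 5.85 to 13.45 at 6 h and from 6.01 to 13.07 at 2 h. The lectin Cd209e rose by 2.95 ± 0.76, Ch25h, which makes an oxysterol that guides B cells, by 2.04 ± 0.62, and Pdcd1lg2, the second ligand of the PD-1 receptor, by 1.99 ± 0.44. The calls of Chil4, Cd209e and Ch25h were lost in the exact permutation test (adjusted p = 0.0702, 0.0505 and 0.0784). The other PD-1 ligand, Cd274, rose by 1.17 ± 0.23. Of the 10 checkpoint and costimulatory ligands 6 rose and none fell, among them Cd40, which licenses antigen-presenting cells, by 0.74 ± 0.16.

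Of 13 CC chemokines 7 rose and none fell, with a median of 1.14. The count that rose was 4 in the fit of the sensitized arrays alone and 11 without sensitized replicate 8 at 2 h. Only 3 of the 13 changes were more positive than in naive mice (8 without sensitized replicate 3 at 6 h). The eotaxins, which draw eosinophils, rose: Ccl24 by 2.88 ± 0.48 and Ccl11 by 2.18 ± 0.49. Ccl24 lay between 7.59 and 9.73 (median 8.08) at 2 h and between 7.64 and 12.63 (median 11.87) at 6 h, with 6 of 8 mice clear of the earlier group. Ccl22 and Ccl17, which draw type 2 T helper cells, rose by 2.13 ± 0.47 and 1.58 ± 0.50, and the monocyte attractant Ccl8 by 2.10 ± 0.57. The calls of Ccl17 and Ccl8 were lost in the exact permutation test (adjusted p = 0.0858 and 0.0516). The macrophage inflammatory protein Ccl3 stood at 1.12 ± 0.51 and Ccl5 at 0.31 ± 0.16, not called. Ccl3 was called without sensitized replicate 3 at 6 h (1.55, adjusted p = 0.00348), without sensitized replicate 1, 4 or 8 at 2 h, with the spread of all arrays of the series (adjusted p = 0.00321) and with array weights (1.94). Ccl5 was called without sensitized replicate 5 at 2 h (0.45, adjusted p = 0.00632).

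Among the attractants of neutrophils, Cxcl5, made by airway epithelium, rose by 2.12 ± 0.77 (adjusted p = 0.0241). Its call was lost in the exact permutation test (adjusted p = 0.126) and in 6 of the 31 fits that each left out 1 mouse. Cxcl1, Cxcl2 and Cxcl3, its relatives, stood at 1.07 ± 0.49, 0.82 ± 0.53 and 1.54 ± 0.82 and were not called. Without sensitized replicate 3 at 6 h all of these were called, at 1.45 for Cxcl1 (adjusted p = 0.00596), 1.26 for Cxcl2 (adjusted p = 0.0216) and 2.17 for Cxcl3 (adjusted p = 0.0138), and so they were with array weights, at 2.28, 1.97 and 3.64. Cxcl1 and Cxcl3 were also called without sensitized replicate 8 at 2 h or 2 at 6 h, and Cxcl1 without sensitized replicate 5 at 2 h. Cxcl3 lay between 5.06 and 11.15 (median 6.93) at 2 h and between 4.60 and 10.67 (median 9.94) at 6 h, with no 6 h mouse above the highest 2 h mouse. Of 17 CXC and other chemokines 10 rose (5 without sensitized replicate 7 at 6 h, and 6 in the fit of the sensitized arrays alone). Only 3 of the 17 changes were more positive than in naive mice (8 without sensitized replicate 3 at 6 h). In this list 1 fell, the homeostatic Cxcl12, which fell by 0.30 ± 0.10 but changed little when its probe sets were averaged (adjusted p = 0.78). Of 14 acute inflammatory cytokines 8 rose and 2 fell, with a median of 0.46. Set against naive mice, 2 of the 14 changes were more positive and 1 more negative (10 and 1 without sensitized replicate 3 at 6 h). Il6, which drives the acute phase, lay between 4.57 and 10.44 (median 9.28) at 2 h and between 5.29 and 11.19 (median 10.56) at 6 h. Its difference of 1.94 ± 0.82 was not called (adjusted p = 0.0518). Tnf stood at 0.41 ± 0.18 and Il1b at 0.38 ± 0.27, not called either. Without sensitized replicate 3 at 6 h all of these were called, at 2.59 for Il6 (adjusted p = 0.00315), 0.58 for Tnf (adjusted p = 0.00076) and 0.63 for Il1b (adjusted p = 0.0191), and likewise with array weights. The calls of Il6 and Tnf were also gained without some other sensitized mice, such as replicate 8 at 2 h. The interleukin 1 receptor antagonist Il1rn rose by 1.48 ± 0.40, and its call was lost in the exact permutation test (adjusted p = 0.0598). The growth factor Csf1 of macrophages rose by 0.66 ± 0.17. Il18, a cytokine that acts on NK cells, fell by 0.79 ± 0.15, and Csf2, which matures granulocytes and macrophages, fell by 0.48 ± 0.09. Of 15 neutrophil markers 1 rose, the decoy receptor Il1r2 by 1.02 ± 0.40, and none fell. The call of Il1r2 was lost in the exact permutation test (adjusted p = 0.0858) and in 7 of the 31 fits without 1 mouse. Their mean lay between 9.60 and 10.34 at 2 h and between 9.34 and 10.81 at 6 h, against 9.19 to 9.58 in naive mice at 2 h. In naive mice at 6 h it lay between 11.14 and 11.53 in replicates 1, 3 and 4 and between 8.89 and 9.59 in the other 5.

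Of 21 genes of NF-kB feedback and endothelial adhesion 13 rose and 1 fell, with a median of 0.52. Set against naive mice, 4 of the 21 changes were more positive and 1 more negative (13 and 1 without sensitized replicate 3 at 6 h). In sensitized mice the count that rose depended on the fit. The 13 that rose became 6 in the fit of the sensitized arrays alone. They ran from 7 to 18 (without sensitized replicate 3 at 6 h) when 1 mouse was left out, with 7 reached without sensitized replicate 2, 4 or 7 at 2 h. The RNase Zc3h12a, which destroys cytokine transcripts, rose by 0.94 ± 0.22 and the NF-kB inhibitor Nfkbie by 0.78 ± 0.20. Nfkbia, the classical inhibitor of NF-kB, stood at 0.12 ± 0.07 and the adhesion molecule Icam1 at 0.10 ± 0.06, not called, though without sensitized replicate 3 at 6 h Icam1 was (adjusted p = 0.00866). Of 14 genes of JAK-STAT signalling and feedback 10 rose and 1, Stat6, fell by 0.19 ± 0.04. Stat4, which relays IL-12 signals in T and NK cells, lay between 8.23 and 8.98 (median 8.69) at 2 h and between 8.99 and 10.02 (median 9.62) at 6 h. All 8 mice at 6 h were above all 2 h mice in Stat4, which rose by 0.93 ± 0.12 (adjusted p = 2.91e-06). Of 26 immediate early genes 7 rose, 1 fell and 18 were not called, with a median of 0.19. That share of higher genes is near the 20.9% of all genes. The transcription factors Fosl1 and Myc rose by 1.63 ± 0.31 and 1.30 ± 0.32, and the phosphatase Dusp2 by 0.83 ± 0.13, while Fos, Jun and Egr1 stood at 0.03 ± 0.16, 0.00 ± 0.05 and 0.19 ± 0.12 and were not called. Nr4a2, an early gene of receptor signalling, fell by 0.54 ± 0.14.

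**Figure D2:**
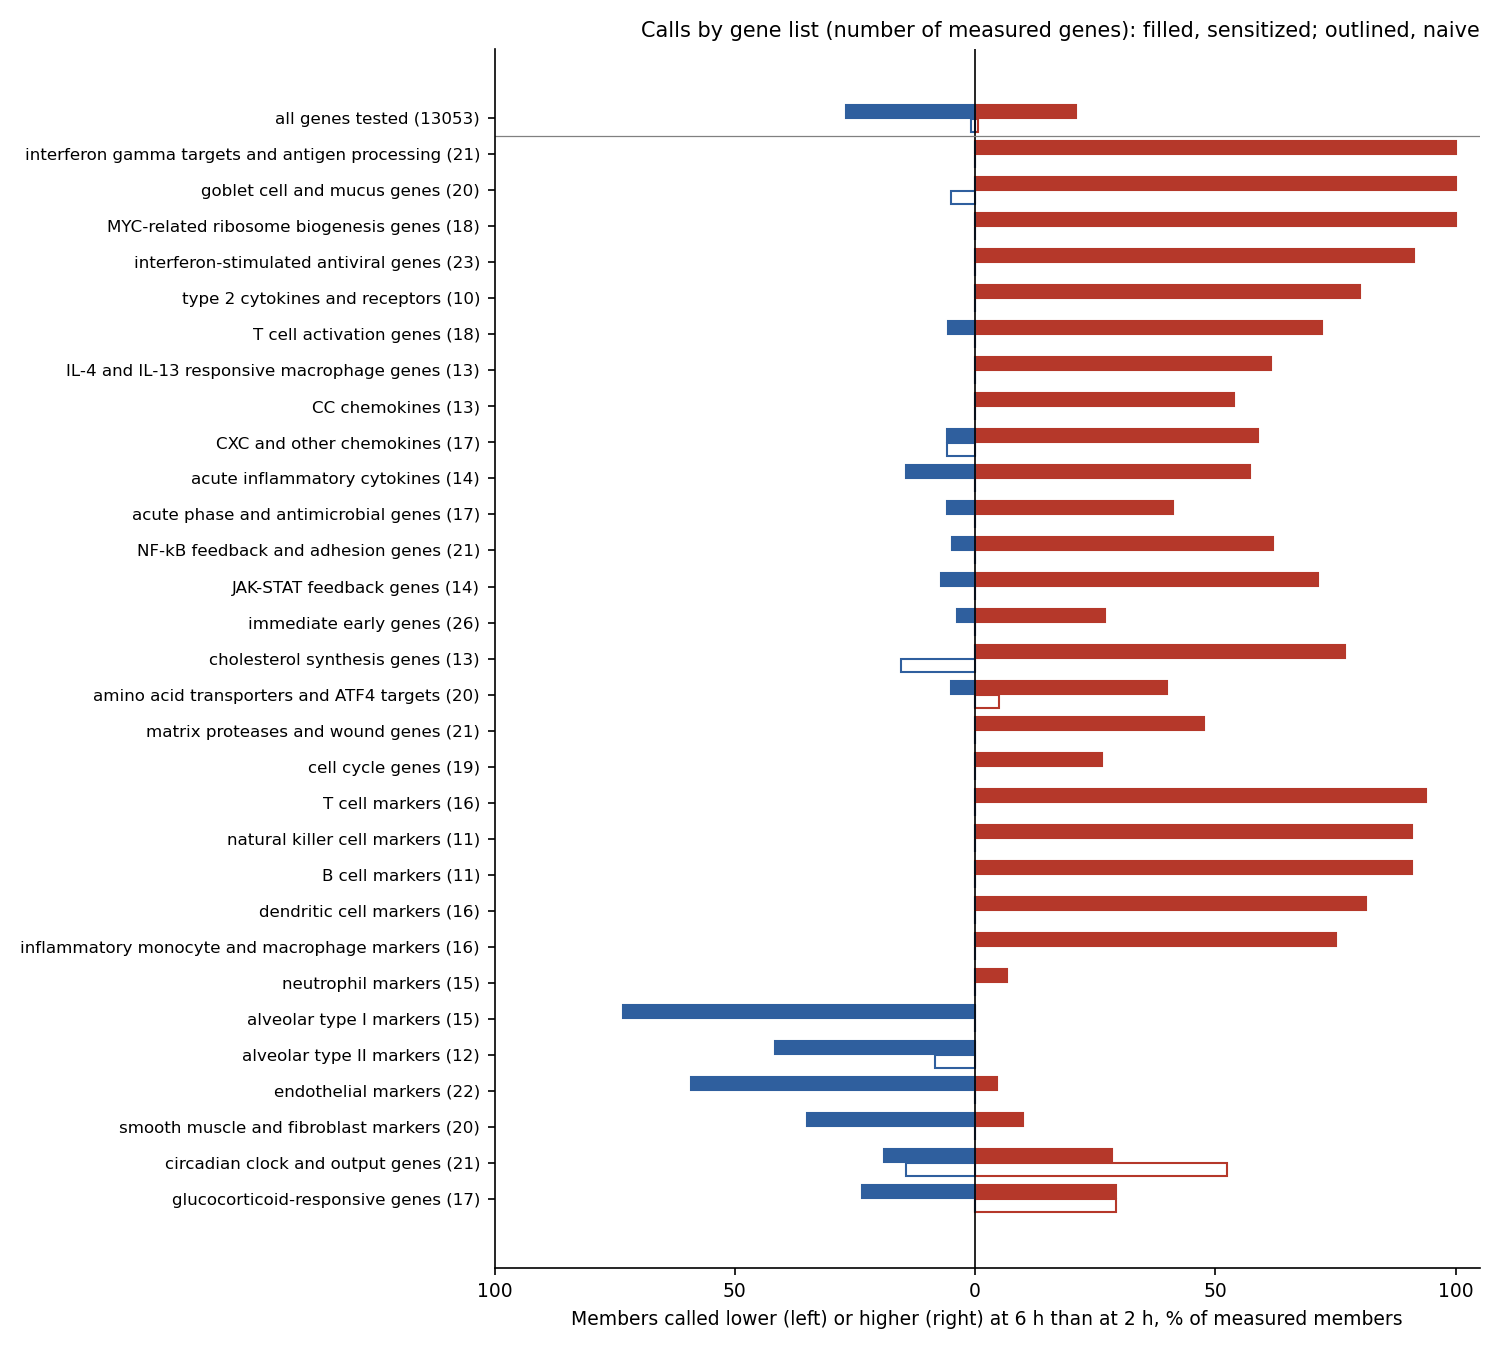
Measured members of 30 gene lists that rose (right) or fell (left) from 2 h to 6 h in sensitized (filled) and naive (outlined) lungs, as a percentage of each list's measured members, with all genes tested at the top. All members of the interferon gamma, goblet cell and ribosome biogenesis lists rose in sensitized mice, and the clock list has more members called in naive than in sensitized mice.

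Of the genes for making ribosomes, all 18 measured members, many of them known targets of MYC, rose, with a median of 0.57, and the change was more positive than in naive mice in 17 of 18. Rrp12, which exports ribosomal subunits, lay between 8.14 and 8.78 (median 8.23) at 2 h and between 8.19 and 9.96 (median 9.75) at 6 h and rose by 1.11 ± 0.18 (adjusted p = 3.27e-05). The lowest 6 h mouse lay within the 2 h range, and 6 of 8 were above it. The ribonucleoproteins Nop58 and Gar1 rose by 0.83 ± 0.15 and 0.71 ± 0.10. The mean over the list was between 10.23 and 10.63 at 2 h and between 10.24 and 11.22 (median 11.10) at 6 h. Of 20 amino acid transporters and ATF4 targets 8 rose and 1 fell. The cystine transporter Slc7a11 rose by 1.51 ± 0.33, the leucine transporter Slc7a5 by 1.38 ± 0.22 and the mitochondrial folate enzyme Mthfd2 by 1.14 ± 0.24. Stress genes of the same list, such as Ddit3 at -0.16 ± 0.08 and Trib3 at 0.06 ± 0.09, were not called. Of 13 glycolysis and hypoxia genes 6 rose. Pfkfb3, which speeds glycolysis, rose by 0.88 ± 0.10 with no overlap between the groups. It also rose in naive mice, by 0.46 ± 0.11, a call that was lost without the arrays high in neighbouring tissue (adjusted p = 0.0653).

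Of 13 genes of cholesterol synthesis 10 rose and none fell in sensitized mice, with a median of 0.35. In naive mice none rose and 2 fell, and the change was more positive in sensitized mice in 11. Lss, which closes the sterol rings, lay between 9.51 and 9.89 (median 9.66) at 2 h and between 10.03 and 10.42 (median 10.31) at 6 h, with no overlap, and rose by 0.62 ± 0.06 (adjusted p = 1.02e-07). The squalene epoxidase Sqle rose by 0.70 ± 0.10 and the demethylase Cyp51 by 0.71 ± 0.14, while in naive mice these stood at -0.26 ± 0.10 and -0.28 ± 0.15, not called. List means at 2 h ran from 10.58 to 10.88 (median 10.66) in sensitized mice and from 10.74 to 10.93 (median 10.89) in naive mice. At 6 h the list mean of 6 of 8 sensitized mice was above every naive mouse. Of 11 cytosolic heat shock genes 1 rose and 4 fell, led by the small chaperone Hspb1, which fell by 0.79 ± 0.17. Of 18 endoplasmic reticulum stress chaperones 1 rose and 3 fell, but 4 rose and 2 fell without sensitized replicate 3 at 6 h. When 1 mouse was left out 1 to 4 of them rose and 1 to 5 fell. Of 19 cell cycle genes 5 rose and none fell, from 3 (without any of several mice, such as sensitized replicate 2 at 2 h) to 8 (without sensitized replicate 3 at 6 h) when 1 mouse was left out. The share is near the 20.9% of all genes. Of the 5, 4 encode subunits of the replicative helicase, such as Mcm3, which rose by 0.49 ± 0.11.

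Of 21 matrix protease and wound genes 10 rose and none fell, or 6 in the fit of the sensitized arrays alone. Only 3 of the 21 changes were more positive than in naive mice (11 without sensitized replicate 3 at 6 h). The protease inhibitor Timp1 rose by 2.11 ± 0.49, the collagenase Mmp13 by 2.07 ± 0.55 and the protease Plau, which activates plasmin, by 1.07 ± 0.21. The call of Mmp13 was lost in the exact permutation test (adjusted p = 0.0505). Of 17 acute phase and antimicrobial genes 7 rose and 1 fell. Set against naive mice, 3 of the 17 changes were more positive (5 more positive and 1 more negative without sensitized replicate 3 at 6 h). Orm2, an acute phase plasma protein, rose by 1.67 ± 0.32 and the complement factor Cfb by 0.89 ± 0.18. The antimicrobial lectin Reg3g, at 2.05 ± 0.99, was not called (adjusted p = 0.0891). Acod1, which makes itaconate in macrophages, rose by 2.29 ± 0.73, lost in the exact permutation test (adjusted p = 0.0603).

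Marker genes of lymphocytes rose in sensitized mice. None of them was called higher in naive mice, where 0.575% of all genes were. Of 16 T cell markers 15 rose, of 11 NK cell markers 10, of 11 B cell markers 10 and of 12 plasma cell markers 9, and none fell in any of these lists. The change was more positive than in naive mice in 10 of 11 NK, 10 of 11 B cell, 10 of 16 T cell and 5 of 12 plasma cell markers. Over all genes that share was 11.7%. In naive mice the median changes of these lists were -0.30, -0.29, 0.01 and -0.02. Ncr1, an activating receptor of NK cells, lay between 7.11 and 8.24 (median 7.83) at 2 h and between 8.42 and 9.24 (median 8.83) at 6 h. The groups did not overlap, and Ncr1 rose by 0.97 ± 0.16 (adjusted p = 3.25e-05). Naive mice lay between 7.59 and 8.61 (median 8.28) at 2 h and between 7.67 and 8.26 (median 7.82) at 6 h. The cytotoxic protease Gzmb, shared by NK cells and killer T cells, rose by 2.09 ± 0.38, and the NK transcription factor Eomes by 0.96 ± 0.16, while the pore protein Prf1 stood at -0.03 ± 0.04, not called. Fcer2a, the low-affinity IgE receptor of B cells, lay between 8.45 and 9.69 (median 9.02) at 2 h and between 9.36 and 11.12 (median 10.56) at 6 h, with 7 of 8 mice above every 2 h mouse. It rose by 1.42 ± 0.19, and the change differed from that of naive mice by 1.79 (adjusted p = 0.000273). The B cell receptor chain Cd79b rose by 0.70 ± 0.15 and the BAFF receptor Tnfrsf13c by 0.96 ± 0.19. The mean of the B cell list lay between 9.10 and 10.55 (median 9.81) in sensitized mice at 2 h, against 10.09 to 10.53 (median 10.39) in naive mice, and between 10.21 and 10.80 (median 10.53) at 6 h. The T cell costimulator Cd28 rose by 0.94 ± 0.17, and the T cell list mean was above every 2 h mouse in 7 of 8 mice.

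Of 16 dendritic cell markers 13 rose and none fell, but several of them, such as Ccl17, Ccl22 and Cd209e, are induced in activated cells. Batf3, needed for cross-presenting dendritic cells, rose by 1.68 ± 0.35 and the migration receptor Ccr7 by 0.91 ± 0.17, while Zbtb46, which marks the lineage, stood at -0.18 ± 0.08, not called, though it was when any of several mice was left out (adjusted p = 0.0428 without sensitized replicate 3 at 6 h). Of 16 inflammatory monocyte and macrophage markers 12 rose and none fell, including the monocyte receptor Ccr2 by 0.59 ± 0.19 and Fcgr1 by 0.76 ± 0.16. The count that rose was 8 in the fit of the sensitized arrays alone. Only 4 of the 16 changes were more positive than in naive mice. That count ran from 2 to 8 (8 without sensitized replicate 3 at 6 h) when 1 mouse was left out. Of 14 alveolar macrophage markers 4 rose (2 without sensitized replicate 8 at 6 h) and 1, the fatty acid-binding protein Fabp1, fell by 0.94 ± 0.25, lost in the exact permutation test (adjusted p = 0.0505). The share of these 14 that rose is near the 20.9% of all genes. Of 6 eosinophil markers 3 rose and 1 fell, with a median of 0.46, and 1 rose in the fit of the sensitized arrays alone. None of the 6 changes was called different from that of naive mice. The mean of this list was above every 2 h mouse in 6 of 8 mice at 6 h and below every 2 h mouse in 1. The eosinophil chemokine receptor Ccr3 rose by 1.56 ± 0.41, from a range of 4.52 to 5.87 to one of 4.25 to 8.14. Siglecf, carried by eosinophils and alveolar macrophages, fell by 0.35 ± 0.13, lost in the exact permutation test (adjusted p = 0.0588). The peroxidase Epx stood at 0.20 ± 0.12, not called. Of 10 mast cell and basophil markers 4 rose and 1, the transcription factor Gata2, fell by 0.22 ± 0.09, a call lost in the exact permutation test (adjusted p = 0.124) and in 10 of the 31 fits without 1 mouse. Those that rose included the proteases Mcpt8 of basophils by 1.61 ± 0.56 and Mcpt1 of mucosal mast cells by 1.27 ± 0.22. The call of Mcpt8 was lost in the exact permutation test (adjusted p = 0.076). The tryptase Tpsb2 and carboxypeptidase Cpa3 of mast cells stood at -0.01 ± 0.17 and 0.21 ± 0.21, not called.

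**Figure D3:**
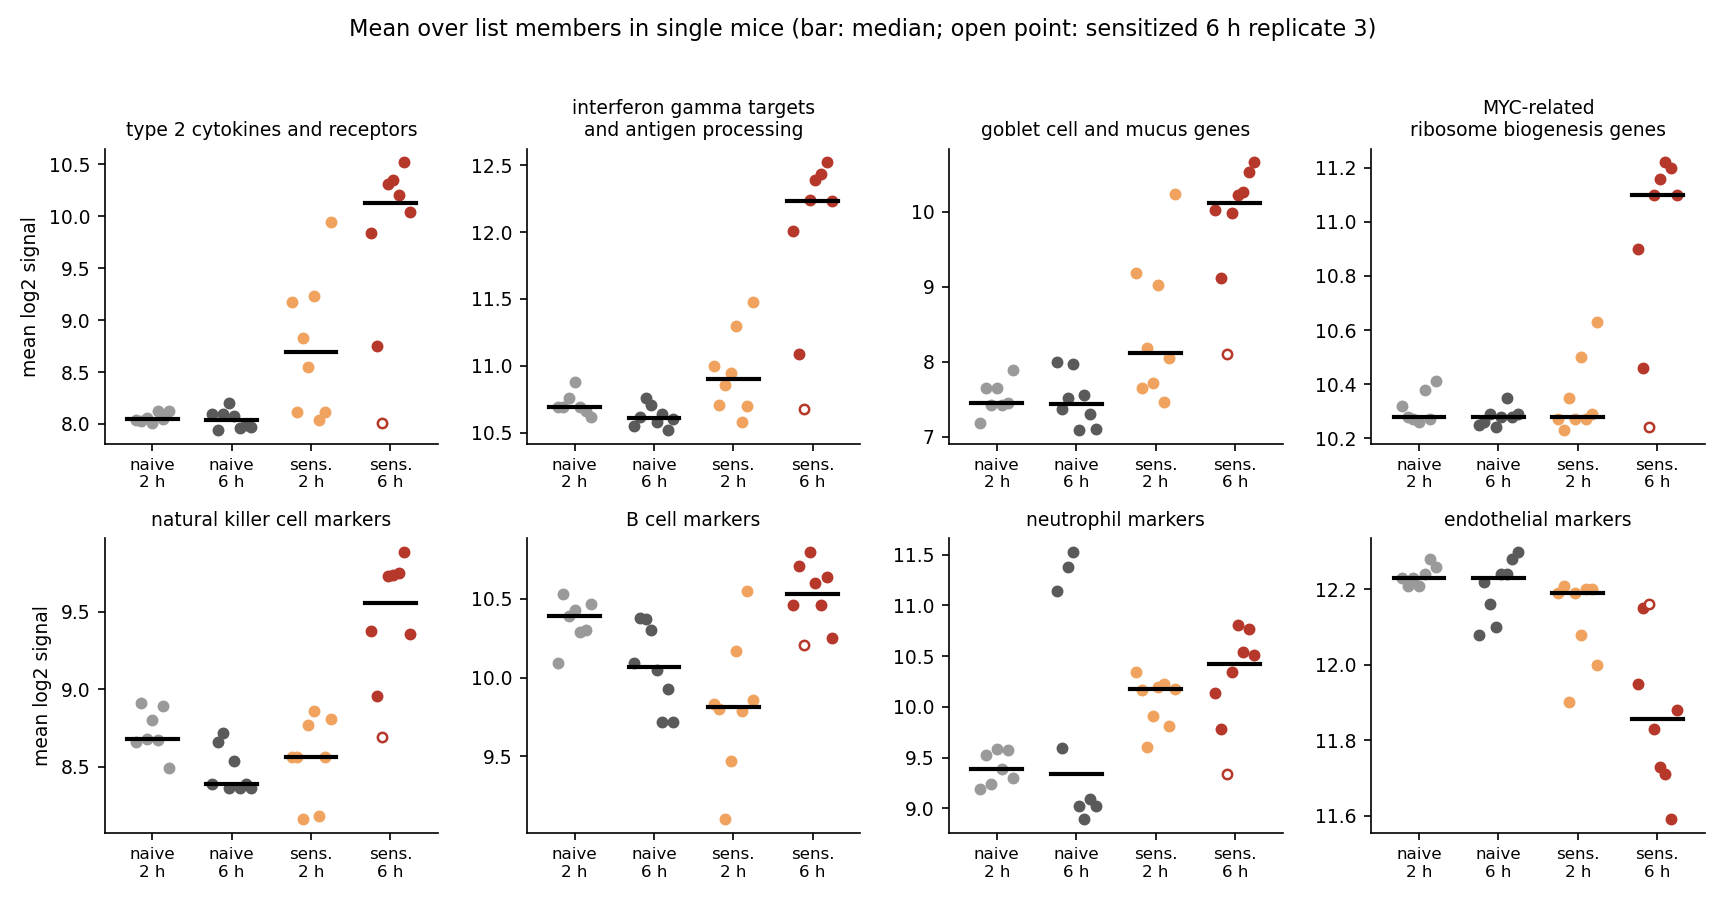
Mean log2 signal over the measured members of 8 gene lists in each mouse at 2 h and 6 h, naive and sensitized, with the group median as a bar and sensitized replicate 3 at 6 h as an open point. Replicate 3 lies with the naive mice for type 2 cytokines, and B cell means of sensitized mice at 2 h reach down to 9.10, below all naive mice.

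Among the genes that fell most, Krtap17-1, a keratin-associated protein, fell by 2.47 ± 0.36, Syt17, a synaptotagmin, by 2.00 ± 0.30 and Tmem35a, a chaperone of acetylcholine receptors, by 1.92 ± 0.32. Another probe set of Syt17 differed by -0.25. Eln, the elastin of arteries and alveolar walls, lay between 12.51 and 13.91 (median 12.81) at 2 h and between 10.86 and 11.81 (median 11.02) at 6 h, with no overlap. It fell by 1.73 ± 0.17 (adjusted p = 1.02e-07). In naive mice Eln fell too, by 0.79 ± 0.17, and the change was more negative in sensitized mice, at -0.94 (adjusted p = 0.00803). Fam107a, an actin-binding protein, lay between 9.92 and 11.17 (median 10.50) at 2 h and between 8.16 and 9.81 (median 8.72) at 6 h and fell by 1.68 ± 0.19 without overlap. In naive mice it stood at 0.58 ± 0.19, not called, and the change differed between the arms by -2.26 (adjusted p = 1.75e-05). Also among the lowest were the acyl-CoA thioesterase Acot1, which fell by 1.62 ± 0.23, and the serine protease Htra3 by 1.48 ± 0.23.

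Of 22 endothelial markers 1 rose and 13 fell, with a median of -0.19, and of 15 alveolar type I cell markers none rose and 11 fell, with a median of -0.17, against 26.8% of all genes lower. The 11 became 7 in the fit of the sensitized arrays alone. The change was more negative than in naive mice in 3 of the 22 endothelial markers, near the 11.9% of all genes. It was so in 4 of the 15 type I markers. Without sensitized replicate 3 at 6 h these counts were 7 and 5. Esm1, a proteoglycan of endothelial tip cells, lay between 8.98 and 11.16 (median 9.96) at 2 h and between 7.08 and 10.28 (median 8.29) at 6 h and fell by 1.40 ± 0.35, and 6 of 8 mice were below every 2 h mouse. Gpihbp1, which holds lipoprotein lipase on capillaries, fell by 0.54 ± 0.09 and the transcription factor Sox18 by 0.46 ± 0.11. Nos3, the endothelial nitric oxide synthase, fell by 0.65 ± 0.11, with no overlap between the groups. The pan-endothelial Pecam1 stood at -0.07 ± 0.04 and Vwf at 0.04 ± 0.08, not called. Rtkn2 of type I cells fell by 0.73 ± 0.12, while most type I markers changed by much less, such as the tight junction protein Cldn18, which fell by 0.22 ± 0.04. Of 12 alveolar type II markers 5 fell (8 without sensitized replicate 1 at 6 h), among them the surfactant lipid transporter Abca3 by 0.40 ± 0.07 and the surfactant protein Sftpb by 0.32 ± 0.07. Of 14 club cell markers 2 rose and 5 fell, with Scgb1a1 at -0.07 ± 0.03, not called (adjusted p = 0.0365 without sensitized replicate 3 at 6 h). Of 20 smooth muscle and fibroblast markers 2 rose and 7 fell, led by the ferritin receptor Scara5, which fell by 1.44 ± 0.40. In this list and the club cell list the share that fell was not far above the 26.8% of all genes. Scara5 ran from 8.24 to 10.18 at 2 h and from 6.75 to 10.21 at 6 h, where replicate 3 was the highest and 6 of 8 mice lay below every 2 h mouse. Of the markers of tissue next to the lung, 1 of 16 squamous, 0 of 14 skeletal muscle, 1 of 15 cardiac and 0 of 10 adipocyte markers passed in sensitized mice. The squamous marker Sprr1a rose by 2.23 ± 0.61, and the cardiac marker Myh7, a myosin heavy chain, fell by 0.98 ± 0.20.

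Clock genes changed in both arms. In naive mice 11 of 21 clock and output genes rose and 3 fell, against 0.575% and 0.835% of all genes, with a median of 0.47. In sensitized mice 6 rose and 4 fell, with a median of 0.17. Those sensitized shares are near the 20.9% higher and 26.8% lower of all genes. The change was more negative in sensitized mice in 9 of them and more positive in 2. Arntl, the BMAL1 activator of the clock, lay between 9.97 and 10.35 (median 10.10) in naive mice at 2 h and between 7.35 and 9.03 (median 7.78) at 6 h, and fell by 2.22 ± 0.19 (adjusted p = 1e-08). In sensitized mice it lay between 9.18 and 10.17 (median 9.96) at 2 h and between 7.85 and 8.89 (median 8.43) at 6 h, and fell by 1.45 ± 0.18. Neither arm overlapped between its times, and the changes differed by 0.77 (adjusted p = 0.0343), a call lost in 9 of the 31 fits that left out 1 mouse. Npas2, a partner of BMAL1, fell by 2.60 ± 0.21 in naive and 1.53 ± 0.20 in sensitized mice, a difference of 1.07, although another probe set of Npas2 changed by -0.29 in sensitized mice. Clock, the other partner, fell by 0.34 ± 0.08 and 0.35 ± 0.07. The other probe sets of Clock gave -0.68, -0.58 and -0.60 in sensitized mice. Per2, a repressor of the clock, lay between 9.49 and 10.07 (median 9.86) and between 10.81 and 12.15 (median 11.67) in naive mice at 2 h and 6 h, and rose by 1.71 ± 0.18. In sensitized mice it lay between 9.91 and 10.86 (median 10.23) and between 10.57 and 11.43 (median 10.91) and rose by 0.61 ± 0.18, with only 4 of 8 mice above every 2 h mouse. The difference of the changes was -1.09 (adjusted p = 0.00478). Per1 rose by 1.06 ± 0.22 in naive and 0.95 ± 0.21 in sensitized mice, and the difference of -0.11 was not called. The output factors Tef, Hlf and Dbp rose in naive mice by 0.70 ± 0.10, 1.12 ± 0.20 and 1.21 ± 0.19. In sensitized mice Dbp rose by 0.52 ± 0.18, while Tef at 0.14 ± 0.09 and Hlf at 0.25 ± 0.19 were not called. The test of the difference between arms was called for Tef at -0.56 and Hlf at -0.87 and missed for Dbp at -0.69 (adjusted p = 0.0559, and 0.0155 without sensitized replicate 3 at 6 h). The sensitized rise of Dbp was lost in the exact permutation test (adjusted p = 0.0871).

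**Figure D4:**
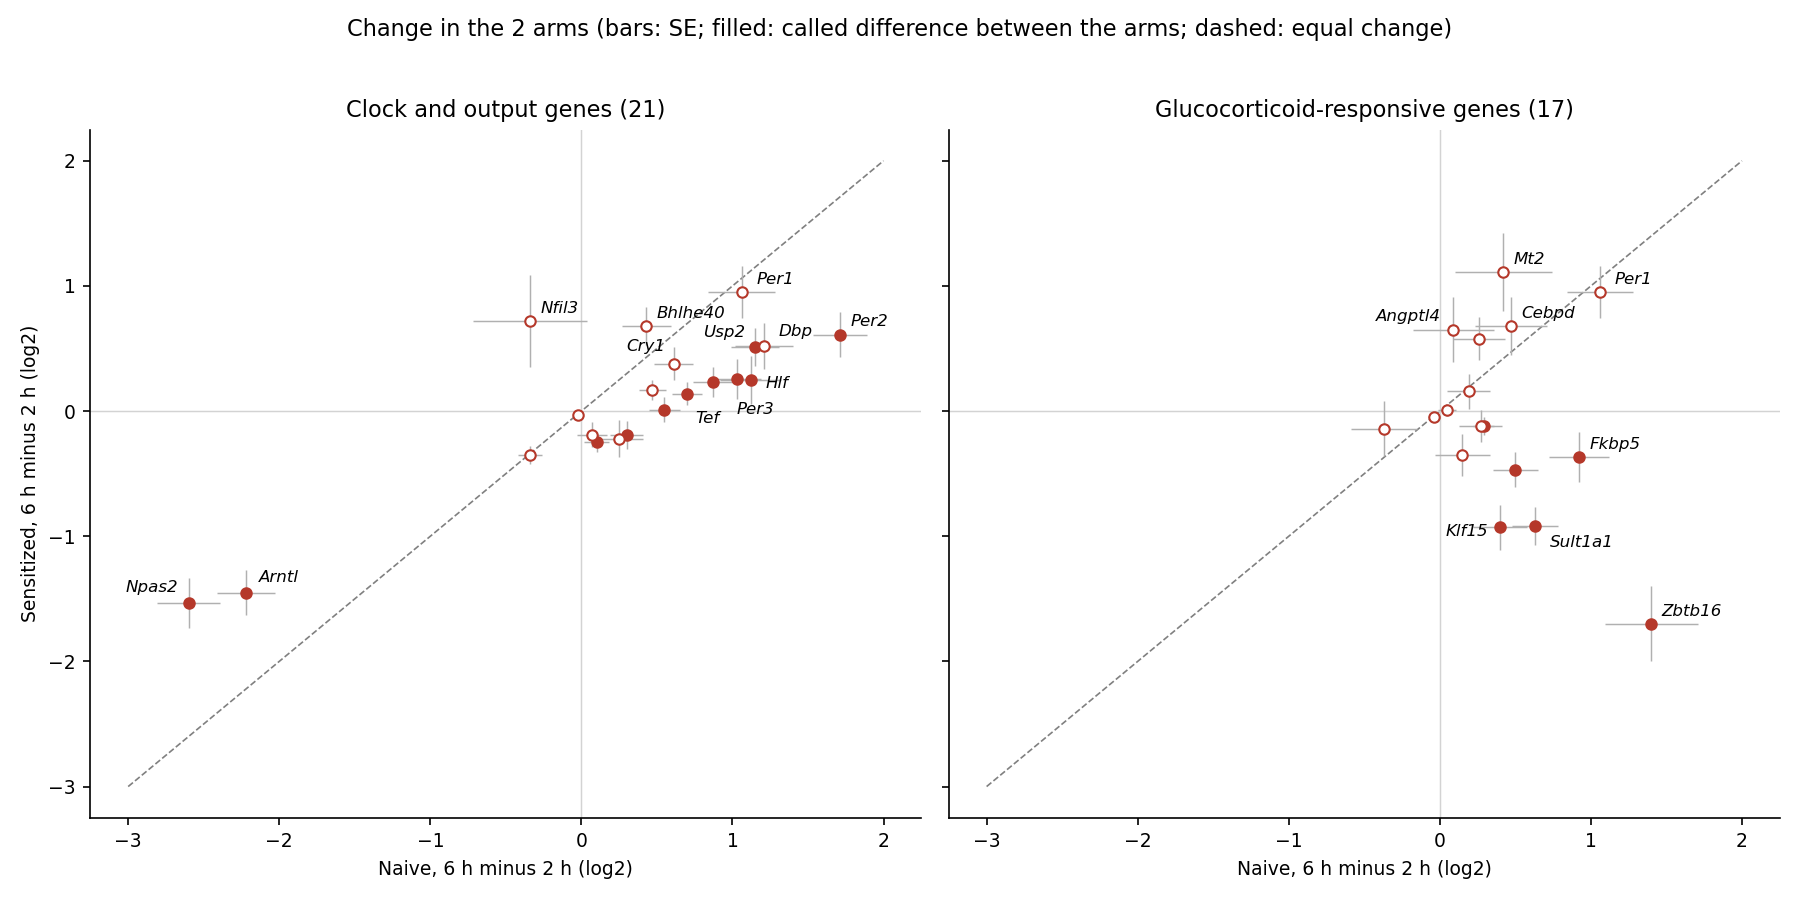
Change from 2 h to 6 h in naive mice (horizontal) against that in sensitized mice (vertical), in log2 units with the SE as bars, for 21 clock and output genes and 17 glucocorticoid-responsive genes. The diagonal marks an equal change in both arms, and filled points have a called difference between the arms. Arntl and Npas2 lie at the lower left above the diagonal, and Zbtb16 lies at the lower right, at 1.40 in naive and -1.70 in sensitized mice.

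The clock works through E-boxes (CACGTG), which BMAL1 binds, and D-boxes (TTATGNAA), bound by Dbp, Tef and Hlf. The E-box was found in 9.77% of all promoters searched and in 13 of 60 of genes that rose in naive mice (21.7%), and the D-box in 2.07% and in 5 of 60 (8.33%). Stretches of some members that rose in naive mice are printed, chosen because they hold a match. E-boxes (Per1, Cry1, Tef) and D-boxes (Per1 nearer to the start, Per3) are in capitals.
Per1 (chr11:69098769-69098948, strand +): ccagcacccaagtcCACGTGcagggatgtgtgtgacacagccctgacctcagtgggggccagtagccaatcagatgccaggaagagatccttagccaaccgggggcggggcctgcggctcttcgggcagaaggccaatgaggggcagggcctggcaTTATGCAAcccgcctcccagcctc
Per3 (chr4:151044806-151044885, strand -): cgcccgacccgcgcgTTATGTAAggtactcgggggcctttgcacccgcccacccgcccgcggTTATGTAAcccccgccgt
Cry1 (chr10:85185075-85185154, strand -): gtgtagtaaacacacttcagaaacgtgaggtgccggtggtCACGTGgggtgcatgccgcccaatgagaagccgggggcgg
Tef (chr15:81802508-81802587, strand +): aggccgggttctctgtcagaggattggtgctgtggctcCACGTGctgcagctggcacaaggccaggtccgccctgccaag
Cry1, a repressor of the clock, rose by 0.61 ± 0.13 in naive and 0.38 ± 0.13 in sensitized mice. Per3, the remaining period gene, rose by 1.03 ± 0.16 in naive mice and stood at 0.26 ± 0.16 in sensitized mice, not called, and the changes differed by -0.77 (adjusted p = 0.0169).

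Among the glucocorticoid-responsive genes, 2 went opposite ways in the arms. Of 17 such genes 5 rose and none fell in naive mice (2 rose without the arrays high in neighbouring tissue), where 0.575% of all genes rose. In sensitized mice 5 rose and 4 fell, which is near the 20.9% higher and 26.8% lower of all genes. The change was more negative in sensitized mice in 6 of the 17. Zbtb16, a transcription factor strongly induced by glucocorticoids, lay between 9.17 and 9.97 (median 9.74) in naive mice at 2 h and between 10.53 and 11.43 (median 11.14) at 6 h, and rose by 1.40 ± 0.31. In sensitized mice it lay between 9.50 and 12.23 (median 11.09) at 2 h and between 7.85 and 10.19 (median 9.46) at 6 h, and fell by 1.70 ± 0.30. The difference of the changes, -3.10 (adjusted p = 9.78e-05), was the lowest of all genes that passed. The 2 h sensitized mice thus overlapped the 6 h naive mice, and 4 of 8 sensitized mice at 6 h were below every one at 2 h. The sulfotransferase Sult1a1 rose by 0.63 ± 0.15 in naive mice and fell by 0.92 ± 0.15 in sensitized mice, a difference of -1.54 (adjusted p = 7.71e-05). Fkbp5, a cochaperone of the glucocorticoid receptor, rose by 0.92 ± 0.20 in naive mice and stood at -0.37 ± 0.20 in sensitized mice, not called, and the changes differed by -1.29 (adjusted p = 0.00323). Without the arrays high in neighbouring tissue the naive rises of Sult1a1 and Fkbp5 were not called (adjusted p = 0.0696 and 0.0893). The metabolic factor Klf15 fell by 0.93 ± 0.18 in sensitized mice and stood at 0.40 ± 0.18 in naive mice, not called. In sensitized mice the metallothionein Mt2 rose by 1.11 ± 0.31, lost in the exact permutation test (adjusted p = 0.051). Sgk1, a kinase induced by glucocorticoids, stood at -0.05 ± 0.04, not called.

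Some other genes were called in naive mice. Fam124b fell by 1.70 ± 0.18 in naive and 1.55 ± 0.18 in sensitized mice, and the matrix protein Spon2 by 1.44 ± 0.13 and 1.26 ± 0.13. The difference of the changes was 0.15 ± 0.26 for Fam124b and 0.18 ± 0.18 for Spon2, both not called. The sphingosine kinase Sphk2 and the deubiquitinase Usp2 rose by 1.24 ± 0.18 and 1.15 ± 0.16 in naive and by 0.49 ± 0.18 and 0.51 ± 0.15 in sensitized mice. The sensitized rise of Sphk2 was lost in the exact permutation test (adjusted p = 0.0926), and those of Sphk2 and Usp2 with array weights (adjusted p = 0.303 and 0.087). Adm, the vasodilator adrenomedullin, fell by 1.28 ± 0.23 in naive mice and stood at -0.43 ± 0.22 in sensitized mice, not called. Cyp2e1, a cytochrome that oxidizes small solvents, and Galnt15, a mucin-type glycosyltransferase, were among the genes with the most negative difference of the changes, at -2.11 and -1.73. In sensitized mice Galnt15 fell by 1.22 ± 0.24, while Cyp2e1 at -1.25 ± 0.54 was not called, except without any of several mice (-1.65, adjusted p = 0.00521, without sensitized replicate 3 at 6 h). The call of the difference for Cyp2e1 was lost in 20 of the 31 fits without 1 mouse. Of the 184 genes called in naive mice, 96 were called the same way in sensitized mice, 20 the opposite way and 68 not at all. Those 96 are 52.2% of the naive calls and 1.54% of the sensitized ones. Of all genes, 20.9% rose and 26.8% fell in sensitized mice, so part of this overlap would be found in any set of genes.

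Some further named genes had probe sets that disagreed in the size of the sensitized change. The other probe set gave 0.10 for Tap1, 0.24 for Zc3h12a, 0.31 for Pfkfb3, -0.37 for Htra3, -0.49 for Spon2, -0.84 for Zbtb16, -0.73 for Abca3 and -0.28 for Sphk2. That of Sphk2 differed in direction from the printed rise. In Per2, Nr4a2, Csf1 and Ccr2 the probe sets ran from 0.30 to 0.61, from -0.55 to -0.14, from 0.43 to 0.74 and from 0.40 to 0.96.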

How the data were processed

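RNA of whole lungs was measured on arrays of 25-base probe sets, labelled by the 3′ in vitro transcription method per the labels' protocols, with 1 array per mouse. The authors deposited 1 table of log2 values normalized by RMA (background correction, quantile normalization and summary of each probe set), per the submitters' processing notes; its version was not stated there, and the values were used as deposited. Scanner files were not used here.

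Of 25697 probe sets, 10 controls were left out, 22478 had 1 gene symbol in the platform annotation, 259 had several and 2950 were not listed there. Of the 13053 genes, 13009 were matched to RefSeq symbols, and the other names are those of the annotation. In the 5672 genes with more than 1 probe set, the probe set that was brightest on average over the whole series stood for the gene. Groups came from the labels. Arrays have no counting depth, so precision is limited by how many there are. No pair of arrays was identical, and pairs correlated at 0.9969 at most. Each array is taken as a separate animal, as the design text and titles name them; batches of preparation or scanning were not examined.

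All 31 arrays of the 4 groups were fitted with limma 3.58.1 in R 4.3.3, with 1 mean per group and 27 residual degrees of freedom, so the 4 groups share 1 estimate of spread per gene. Contrasts were sensitized 6 h minus 2 h, naive 6 h minus 2 h and the difference of these changes. P-values were adjusted over all genes by Benjamini-Hochberg with a threshold of 0.05, under which a gene is called. A value after ± is the SE of a change. Two-sided exact permutation tests of 8 against 8 mice (smallest possible p 0.000155) were run on 708 genes and adjusted over these. The fit was tested on simulated data with independent normal values and the same spread in all 4 groups. That test could not show how the fit does where sensitized mice vary more than naive mice. Counts, ranges and figures were made with Python 3.11.15, pandas 2.3.3 and matplotlib 3.10.9. Promoters came from RefSeq (GRCm38.p6).

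The text names the 15 highest and 12 lowest sensitized changes past the threshold, the 8 highest and 6 lowest differences of the changes, the 5 highest and 5 lowest naive changes, and of each of 48 gene lists up to 4 members with the largest called change, besides other members given next to their list's count; names made of Gm, Rik or LOC numbers were counted but not printed, and not every gene that the rule allows is printed. The comparison and the gene lists were chosen with earlier results of these data known. Alternatives changed the arrays that share the spread, array weights, the prior, the choice of probe set, a filter on dim genes, the scaling, the arrays high in neighbouring tissue, the size of change tested and each mouse in turn.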

Additional observations from a re-analysis of the deposited data

Results flagged for a closer look

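In 10 of the 120 groups of 7 or 8 mice looked at, taken over 30 genes, 1 mouse lay far from the others on the log2 scale by Dixon's test, where chance flags about 1 in 20 groups. Of these, 4 were sensitized replicate 3 at 6 h, which was low in the goblet cell gene Clca1 at 6.89, in the cytokines Il4 at 6.07 and Il6 at 5.29, and in Aldh1a3 at 7.21. At 2 h, sensitized replicate 3 was high in Eln at 13.91 and low in the NK cell receptor Ncr1 at 7.11, and sensitized replicate 8 was high in Il5 at 8.84. In naive mice, replicate 1 at 2 h was apart in Ifng at 5.52, replicate 1 at 6 h in Chil4 at 9.07 and replicate 3 at 6 h in Lss at 10.10.

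Of the genes whose difference of the changes between the arms is printed, 15 passed limma's test of that difference. It was more positive in sensitized mice in Cxcl11 at 3.95, Fcer2a at 1.79, Npas2 at 1.07 and Arntl at 0.77. It was more negative in Zbtb16 at -3.10, Fam107a at -2.26, Cyp2e1 at -2.11, Galnt15 at -1.73, Sult1a1 at -1.54, Fkbp5 at -1.29, Per2 at -1.09, Eln at -0.94, Hlf at -0.87, Per3 at -0.77 and Tef at -0.56.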

How the results depend on the processing

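The count of genes called from 2 h to 6 h in sensitized mice stayed within 1.5 times the reported 6228 when the spread was shared over all arrays of the series (6639) or taken from the 16 sensitized arrays alone (5101), with array weights (8806), with a trended and robust prior (6232), with the mean of all probe sets (6292), without dim genes (5411), with each array centred (6267), after quantile normalization (6241) and without the arrays high in neighbouring tissue (6515). Tested against a change of 1.5-fold, 22 genes passed. Leaving out 1 mouse gave 5335 (sensitized replicate 7 at 6 h) to 7178 (sensitized replicate 3 at 6 h). The naive count of 184 became 355 with all arrays of the series and 1008 with array weights, and lay between 131 and 240 without 1 mouse. The count of differences between the arms, 3090, became 7497 with array weights and lay between 2260 (without sensitized replicate 7 at 6 h) and 4873 (without replicate 3). Of 147 genes named as called in sensitized mice, 129 kept the call in every such fit other than that against 1.5-fold, and 141 in every fit without 1 mouse. Of 406 genes with a limma call that were also tested exactly, 275 passed the exact permutation test. With array weights Il2 stood at 0.42 (adjusted p = 0.0448), and with the mean of all probe sets Nfatc1 stood at 0.00 (adjusted p = 0.961) and Prf1 at 0.22 (adjusted p = 0.00298); the cause was not tested. No paired analysis was possible because the mice at 2 h and 6 h were different animals by their labels. Arrays set a floor and a ceiling to signal, so changes of dim or very bright genes may be understated.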

Other observations

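Genes outside the gene lists also had no overlap between the 8 sensitized mice at 2 h and the 8 at 6 h; those given here were chosen after their values were seen. Cftr, the chloride channel of airway epithelium that is mutated in cystic fibrosis, lay between 9.91 and 10.34 (median 10.11) at 2 h and between 8.85 and 9.90 (median 9.16) at 6 h, and fell by 0.86 ± 0.12 (limma, adjusted p = 7.88e-06). All 8 later mice were lower, and in naive mice the gene stood at -0.10 ± 0.12, not called. Igfbp3, which binds insulin-like growth factors, fell by 1.08 ± 0.15 from a range of 11.21 to 11.92 to one of 9.96 to 11.10. Lox, which cross-links elastin and collagen, fell by 0.73 ± 0.10 from a range of 12.22 to 12.62 to one of 11.44 to 11.88. Apol6, an apolipoprotein L, rose by 1.49 ± 0.24 from a range of 6.69 to 7.17 to one of 7.19 to 9.26, and even its lowest 6 h mouse was above the 2 h mice.

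Some genes without overlap in sensitized mice also rose in naive mice, where the change was of like size. Tspan4, a tetraspanin of migrating cells, rose by 1.21 ± 0.11 in sensitized and 0.96 ± 0.12 in naive mice. The difference of these changes, 0.25 ± 0.16, was not called (adjusted p = 0.256). Mthfd1l, a mitochondrial folate enzyme, rose by 1.22 ± 0.13 and 1.01 ± 0.13, with a difference of 0.21 ± 0.19 that was not called (adjusted p = 0.43). A miss of the threshold does not show that the changes were equal.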
